A study of Mus musculus with 21 samples.

Results

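Loss of the vitamin D receptor was set against shortage of its ligand in sorted mouse intestinal Lgr5 cells. The comparison holds 6 of the 21 bulk RNA-seq libraries of the series, 3 labelled AIN_VdrKO and 3 labelled AINlowVitD, and 16050 of 37310 genes were tested. Genes were chosen by no measured value: every gene of the deposited count table other than the ERCC spike-ins entered. AIN_VdrKO libraries come from mice that carry the Lgr5EGFPcre-ERT2 allele and are labelled VdrKO, fed AIN76A, a purified control diet with its usual vitamin D. AINlowVitD libraries come from Lgr5EGFPcre-ERT2 mice with no Vdr allele named, fed AIN with vitamin D given in the labels as 0.11 IU/g. In both groups the diet ran from weaning to 3 months of age and the brightest EGFP cells of dispersed crypts were sorted. The EGFP and Cre of this allele are driven from the Lgr5 gene. The labels do not say how Vdr was deleted, or in which cells. The groups thus differ in genotype and in diet at once. They differ in sex as well: the 3 AIN_VdrKO mice are male, while AINlowVitD 1 and 2 are female and AINlowVitD 3 is male. The 3 AIN libraries (Lgr5EGFPcre-ERT2 mice on the control diet, AIN 1 and 2 female, AIN 3 male) are given below as a description of where a level lies.

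The active hormone, 1,25-dihydroxyvitamin D, binds the vitamin D receptor, which pairs with a retinoid X receptor on DNA and recruits coactivators. Without hormone the receptor can still sit on DNA with corepressors, so a missing receptor and a missing ligand need not act alike. In the intestine the pathway is best known for calcium uptake through the apical channel Trpv6, the calcium carrier calbindin-D9k (S100g) and the basolateral pump Atp2b1, and for control of its own breakdown through Cyp24a1.

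Counts on genes were 24745820, 22562419 and 115435120 in AIN_VdrKO and 41781479, 19889795 and 44168517 in AINlowVitD. The AIN_VdrKO libraries were spread out: on the first principal component of all 21 libraries, which held 41.4% of the variance, they lay at 44.3, 3.4 and -22.9, against 75.6 to 82.5 for AINlowVitD. Mitochondrial ribosomal RNA took 1.38% to 2.8% of the counts in AIN_VdrKO and 2.95% to 3.85% in AINlowVitD. The 10 most abundant genes took 8.62% to 13.5% and 14.1% to 15.9% of the counts in AIN_VdrKO and AINlowVitD. ERCC spike-ins, which are added synthetic RNAs, differed in relative abundance between the groups in 38 of 78 (48.7%, with 17 higher and 21 lower in AIN_VdrKO, edgeR quasi-likelihood test). This is a technical difference between the groups, and no preparation batch is labelled. Its part in the gene results was not tested.

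Vdr itself (ENSMUSG00000022479.9) is the first gene to look at. Its level was 297, 482 and 247 CPM (counts scaled to the library's TMM-adjusted size) in the libraries labelled AIN_VdrKO and 250, 273 and 155 CPM in AINlowVitD. The groups overlapped, and no library labelled AIN_VdrKO lacked the transcript. Vdr had a log2 fold change of 0.52 ± 0.39 (SE) with an adjusted p of 0.469 by the quasi-likelihood test of edgeR with Benjamini-Hochberg adjustment, and with deposited TPM values and limma it was 1.45 (adjusted p = 0.0313). AIN libraries had 338, 373 and 746 CPM. Gene-level counts cannot show a deletion of part of the gene, and the deleted part is not given, so these counts do not check the genotype. Every direction below is that of libraries labelled AIN_VdrKO. The 3 nearest tested protein-coding genes on each side of Vdr, namely Rapgef3, Slc48a1 and Hdac7 before it and Tmem106c, Col2a1 and Senp1 after it, were not called by edgeR, while DESeq2 called Tmem106c, Col2a1 and Senp1. Senp1, which encodes a SUMO protease, was at 28.4 ± 11.4 CPM in AIN_VdrKO and 9.88 ± 2.87 CPM in AINlowVitD (SD, n = 3 each; log2 fold change 1.40 ± 0.43, adjusted p = 0.0800); Senp1 and Tmem106c were each called in 7 of the 21 other settings tried.

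Across all genes, 110 (0.685% of those tested) rose and 382 (2.38%) fell in AIN_VdrKO relative to AINlowVitD, at an adjusted p under 0.05. The median log2 fold change of all tested genes was 0.13, with quartiles of -0.44 and 0.55. Of the 492 called genes, 477 had CPM values that did not overlap between the groups, against 28.9% of all tested genes. A change of 2-fold or more was seen for 109 of the 110 rises and 380 of the 382 falls. The split between rises and falls moved with the scaling: by total count the fit called 2246 rises and 354 falls, and limma on log2(TPM + 1), which changes the test as well, called 4830 and 325, with the median of all genes moved to 0.64 and 0.63. The count moved with the samples fitted: the 6 libraries alone with a sex term gave 0 rises and 5 falls (1677 genes at an unadjusted p under 0.05), and the 11 male libraries of the series gave 0 rises and 6 falls (1530 genes at an unadjusted p under 0.05). In that males-only fit AINlowVitD 3 is the single AINlowVitD library and is assumed to vary like the males of the other groups. The 6-library fit with a sex term has the same limit. Its AIN_VdrKO libraries are all male and the sex term takes up the female AINlowVitD libraries, so the contrast rests on AINlowVitD 3. The direction of the 492 calls stayed the same in both of those fits wherever the gene was tested. Both fits set the AIN_VdrKO libraries that made the calls against AINlowVitD 3. With 477 of the calls free of overlap, that direction was largely fixed in advance and adds no separate support. In these bulk samples fewer cells of a type and less RNA per cell cannot be told apart.

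**Figure D1:**
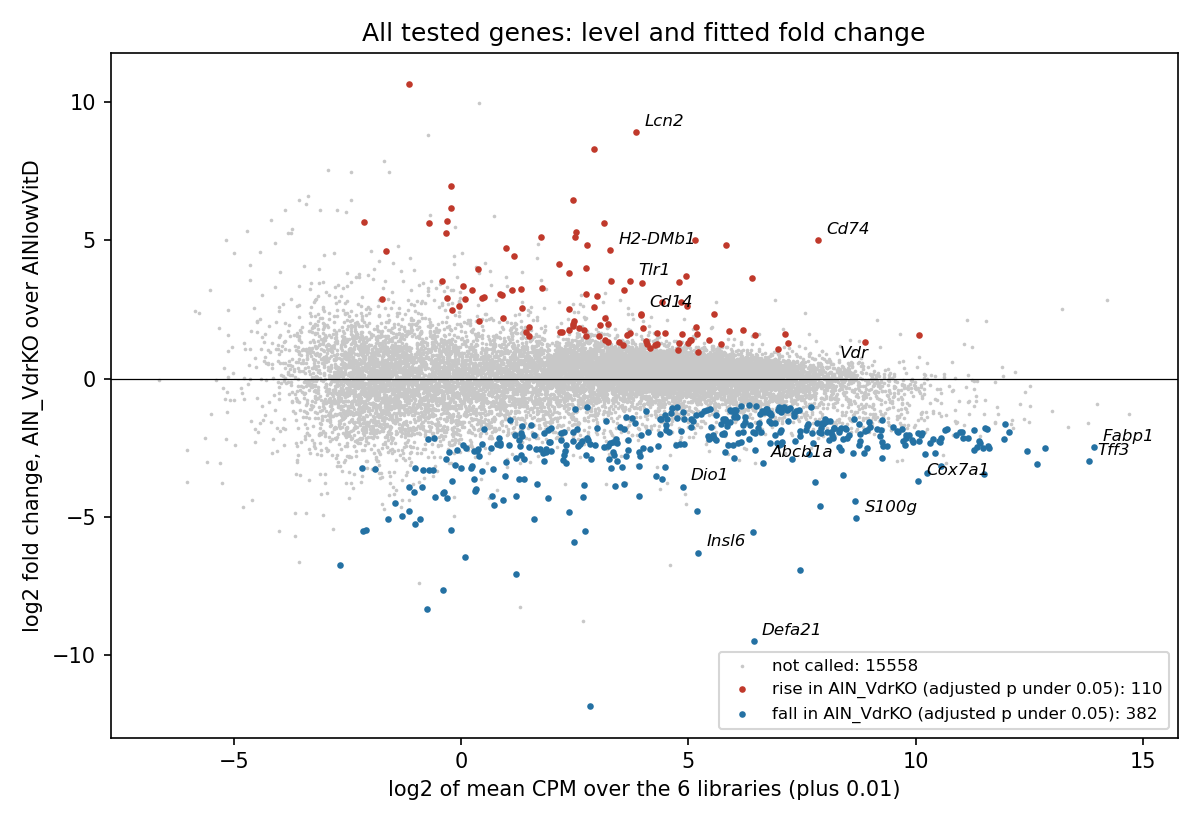
Fitted log2 fold change (AIN_VdrKO over AINlowVitD, vertical axis) against the log2 of the mean CPM over the 6 libraries plus 0.01 (horizontal axis) for 16050 tested genes. The 110 rises are red, the 382 falls blue and the other genes grey; several falls, such as Fabp1 and Tff3, are among the most abundant genes, and Vdr lies within the grey band.

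S100g carried the clearest difference among the calcium transport genes. This gene (ENSMUSG00000040808.4), which encodes the cytosolic calcium carrier calbindin-D9k, was at 46.0, 9.48 and 4.44 CPM in AIN_VdrKO and 1490, 489 and 442 CPM in AINlowVitD. All AIN_VdrKO libraries lay below all AINlowVitD libraries, and AIN_VdrKO 1 was the highest of its group. The log2 fold change was -5.03 ± 1.04 (adjusted p = 0.0128). AIN libraries, at 101, 106 and 43.2 CPM, lay mostly between the groups. Without AIN_VdrKO 2 the adjusted p was 0.0621 and without AIN_VdrKO 3 it was 0.0651.

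The apical channel gene Trpv6 had 0 counts in each AIN_VdrKO library and 5, 2 and 1 counts in AINlowVitD. The ratio of pooled counts, AIN_VdrKO over AINlowVitD, had an upper 95% counting limit of 0.246; the level was at the edge of detection in both groups, and Trpv6 did not pass the test (adjusted p = 0.173). Cyp24a1, the hydroxylase that inactivates the hormone, had 0, 0 and 5 counts in AIN_VdrKO and 0, 2 and 0 in AINlowVitD, and Cyp27b1, which makes the hormone, had 0, 3 and 13 counts in AIN_VdrKO and 0, 1 and 2 in AINlowVitD; both were too low to test. The basolateral pump gene Atp2b1 was at 102, 129 and 102 CPM in AIN_VdrKO and 170, 138 and 156 CPM in AINlowVitD. Its groups did not overlap, yet the log2 fold change of -0.37 ± 0.27 did not pass (adjusted p = 0.454) and was 0.14 under total count scaling and 0.54 with TPM.

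Abcb1a and Cd14 changed in opposite directions. Abcb1a (ENSMUSG00000040584.8), which encodes the efflux pump P-glycoprotein, was at 14.3, 19.4 and 18.4 CPM in AIN_VdrKO and 271, 132 and 143 CPM in AINlowVitD. The groups did not overlap, and AIN lay between them at 45.7, 35.3 and 102 CPM. Abcb1a fell by 3.05 ± 0.56 on the log2 scale (adjusted p = 0.00802), and it was among the 2 named genes that were still called with males only (log2 fold change -3.14, adjusted p = 0.0345, against AINlowVitD 3 alone). Cd14 (ENSMUSG00000051439.6), a co-receptor for lipopolysaccharide, was at 22.1, 28.9 and 27.7 CPM in AIN_VdrKO and 4.38, 6.96 and 3.26 CPM in AINlowVitD. Its AIN_VdrKO libraries were close together and above all others, AIN included (5.26, 6.45 and 5.02 CPM). The log2 fold change was 2.35 ± 0.39 (adjusted p = 0.00356).

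Other target genes did not pass the test. Of 31 tested genes of vitamin D response and calcium transport, Cd14 rose (3.23%), Abcb1a and S100g fell (6.45%) and 28 were not called. Among all genes 0.685% rose and 2.38% fell. The list had a median log2 fold change of -0.06 beside 0.13 for all genes. The claudin gene Cldn2, which encodes a cation-permeable tight junction protein, was at 151, 122 and 297 CPM in AIN_VdrKO and 80.0, 113 and 56.0 CPM in AINlowVitD. The groups did not overlap (log2 fold change 1.14 ± 0.39, adjusted p = 0.113). Cldn12 (0.50 ± 0.35, adjusted p = 0.432) and Cldn15 (-0.44 ± 0.32, adjusted p = 0.456), which encode further claudins, overlapped between the groups, and Cldn15 had a log2 fold change of 0.05 under total count scaling. Slc30a10, a manganese exporter gene known as a vitamin D target in human intestine, had a log2 fold change of -1.29 ± 0.80 (adjusted p = 0.378).

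The metallothionein genes, whose products bind zinc, were next. Mt1 was at 1330, 649 and 262 CPM in AIN_VdrKO and 2400, 1920 and 2210 CPM in AINlowVitD. The groups did not overlap, while AIN was lower than either at 196, 176 and 169 CPM. The log2 fold change of Mt1 was -1.25 ± 0.49 (adjusted p = 0.161), and without AIN_VdrKO 1 it was -1.96 with an adjusted p of 0.0140. Mt2 overlapped between the groups (288, 94.1 and 5.31 CPM in AIN_VdrKO, 361, 204 and 183 CPM in AINlowVitD), with a log2 fold change of -0.32 ± 0.81 (adjusted p = 0.854) that was 0.24 without AIN_VdrKO 3.

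Of 14 tested genes of the receptor and its partners and 9 of vitamin D metabolism, none was called by edgeR or DESeq2; at an unadjusted p under 0.05 there were 2 in each list. The DNA partner gene Rxra was at 23.9, 31.1 and 13.1 CPM in AIN_VdrKO and 49.5, 40.7 and 39.2 CPM in AINlowVitD. The groups did not overlap (log2 fold change -0.84 ± 0.36, adjusted p = 0.203), but with TPM the value was 0.01. Ppargc1a, a coactivator of mitochondrial biogenesis, overlapped between the groups and had a log2 fold change of -0.39 ± 0.57 (adjusted p = 0.734; 0.10 under total count scaling).

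**Figure D2:**
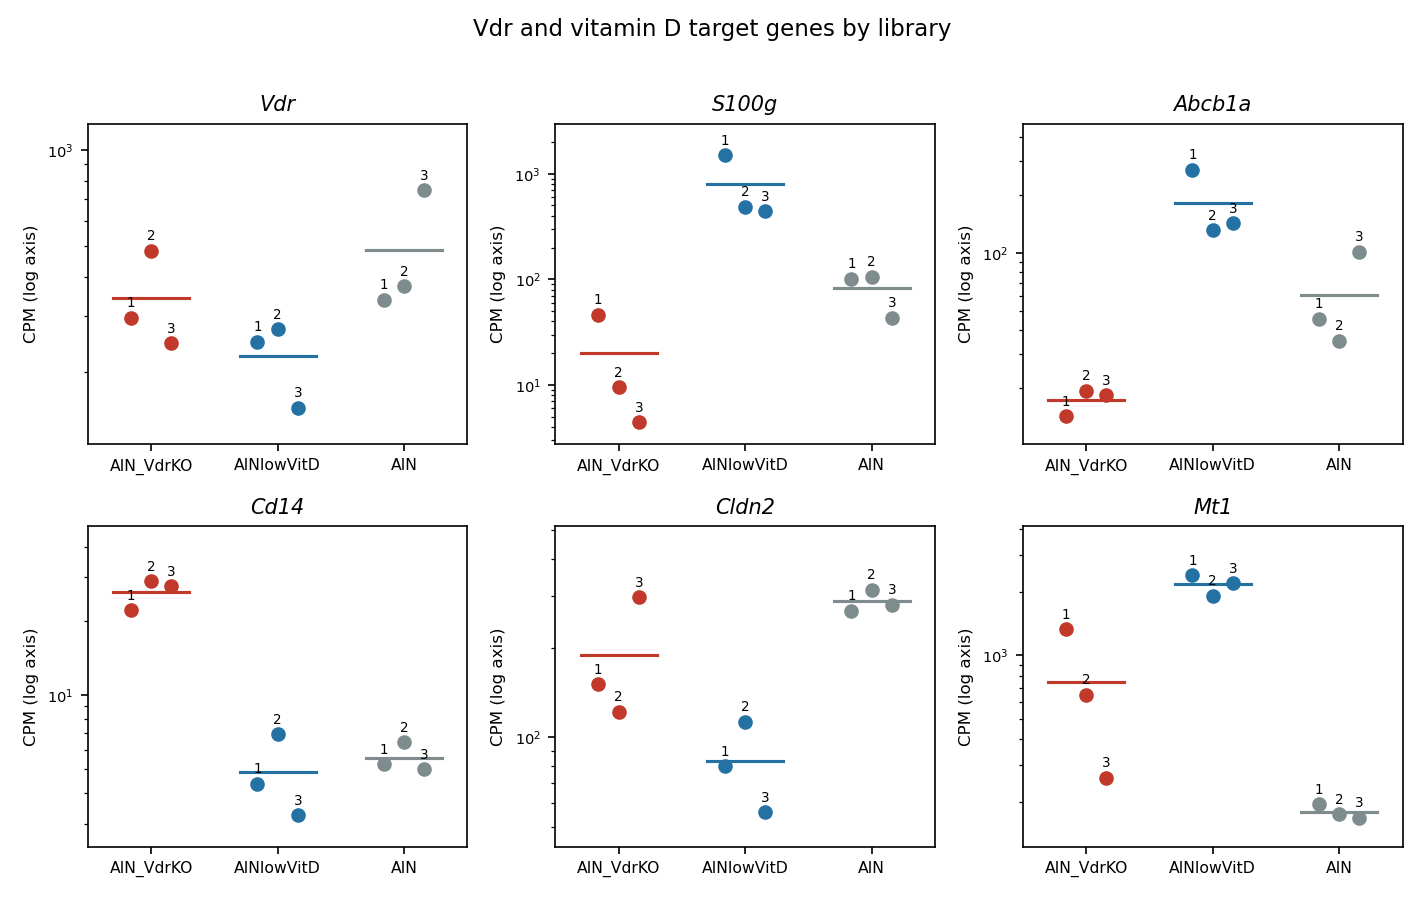
CPM on a log axis for Vdr and 5 target genes in AIN_VdrKO, AINlowVitD and AIN; each point is a library with its replicate number and each line the mean of 3. S100g and Abcb1a are lower and Cd14 is higher in every AIN_VdrKO library than in any AINlowVitD library, while the Vdr groups overlap.

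Of 10 tested identifiers of MHC class II presentation 6 rose and none fell, beside 0.685% rises among all genes. Class II molecules show peptides to CD4+ T cells; H2-Aa, H2-Ab1 and H2-Eb1 encode their chains, Cd74 the invariant chain, H2-DMa and H2-DMb1 the chains that load peptide, and Ciita the coactivator that switches the group on. The median log2 fold change of the list was 3.21. This median stayed between 2.12 and 3.66 in all 21 other settings. H2 genes share near-identical stretches, so single members are uncertain.

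The class II rises can be set beside the sequence before the start of each gene. Of the 6 genes that rose, 4 have an entry in the RefSeq promoter table (GRCm38.p6), which spans 250 bases before to 50 after each start. Class II promoters are known for an X box and, downstream of it, a Y box with an inverted CCAAT, and the stretch below was chosen to show both. Capitals mark TGATTGG, the letters of a Y box, and AACTGATGATGCT, the longest run that H2-Eb1 and H2-DMb1 share upstream of it, which covers part of the X box; each was searched on both strands, and they do not overlap.
H2-Aa: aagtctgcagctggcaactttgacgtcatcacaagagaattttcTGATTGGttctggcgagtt
H2-Eb1: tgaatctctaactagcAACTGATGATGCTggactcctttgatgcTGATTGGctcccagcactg
H2-DMb1: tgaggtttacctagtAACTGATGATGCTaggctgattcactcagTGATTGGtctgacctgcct

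These stretches lie at chr17:34287855-34287917 (minus strand), chr17:34305762-34305824 (plus strand) and chr17:34153084-34153146 (plus strand), and are written 5′ to 3′ in the direction of the gene. TGATTGG was present in 3 of the 4 genes and in 7.82% of the 32851 promoters of the table, and AACTGATGATGCT, chosen because 2 of the 4 share it, in 3 promoters of the table. H2-DMa held neither run of letters in its windows. A match describes the letters and shows no binding.

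Cd74 was at 440, 883 and 18.0 CPM in AIN_VdrKO and 23.3, 10.4 and 14.1 CPM in AINlowVitD. AIN_VdrKO 1 and 2 were far above every AINlowVitD library, whereas AIN_VdrKO 3, the deepest library, lay within their range. The log2 fold change was 5.01 ± 0.98 (adjusted p = 0.0105). The chain genes had the same split. H2-Aa was at 39.7, 161 and 2.23 CPM in AIN_VdrKO and 4.64, 1.27 and 1.95 CPM in AINlowVitD (log2 fold change 5.01 ± 1.09, adjusted p = 0.0159). H2-Ab1 was at 100, 349 and 13.6 CPM in AIN_VdrKO and 15.7, 11.3 and 13.9 CPM in AINlowVitD (3.64 ± 0.83, adjusted p = 0.0217). For both, AIN_VdrKO 3 overlapped AINlowVitD.

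H2-Eb1 was at 54.1, 110 and 6.98 CPM in AIN_VdrKO and 5.21, 3.51 and 4.76 CPM in AINlowVitD (log2 fold change 3.73 ± 0.78, adjusted p = 0.0132). H2-DMb1 was at 11.4, 39.2 and 5.08 CPM in AIN_VdrKO and 0.863, 0.969 and 0.607 CPM in AINlowVitD (4.65 ± 0.90, adjusted p = 0.0101). H2-DMa was at 36.4, 66.5 and 8.23 CPM in AIN_VdrKO and 5.92, 6.17 and 4.89 CPM in AINlowVitD (2.77 ± 0.60, adjusted p = 0.0159). These 3 genes did not overlap, although AIN_VdrKO 3 was again the lowest of its group. Ciita, counted under a pair of identifiers, was at 3.59, 9.74 and 1.14 CPM in AIN_VdrKO and 0.768, 0.605 and 1.28 CPM in AINlowVitD for ENSMUSG00000022504.8 (log2 fold change 2.4 ± 0.84, adjusted p = 0.121). The other Ciita identifier did not pass either, nor did H2-DMb2 (-1.02, adjusted p = 0.749) or Ctss, the gene of cathepsin S, which trims the invariant chain (-0.40 ± 0.29, adjusted p = 0.447); Ctss was lower in every AIN_VdrKO library than in any AINlowVitD library.

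The class II calls rested on few libraries. Without AIN_VdrKO 2 the list had 1 rise, without AINlowVitD 3 it had 0, and without AINlowVitD 1 it had 4. In the 6 libraries alone with a sex term, and in males only, it had 0. Markers of leukocytes, which carry class II genes and could pass a sort, moved in part with these genes. Summed over 26 leukocyte genes other than Cd74, the level was 49.5, 71.5 and 54.2 CPM in AIN_VdrKO and 38.1, 31.2 and 31.2 CPM in AINlowVitD, with 1 to 5 of the 26 at 0 in AIN_VdrKO and 2 to 11 in AINlowVitD. Of 20 tested leukocyte genes 19 had a positive log2 fold change, the median was 1.07, and Cd74 alone was called. The median log2 CPM of these tested genes was 0.32, 0.9 and -1.62 in AIN_VdrKO and -0.56, -1.1 and -1.31 in AINlowVitD. The 10 genes that define T and B cells summed to 12.6, 18.1 and 10.3 CPM in AIN_VdrKO and 13.7, 6.66 and 13.9 CPM in AINlowVitD. Without Ptprc, which leukocytes of all kinds carry, the other 9 summed to 3.56, 6.61 and 6.49 CPM in AIN_VdrKO and 2.5, 1.87 and 2.71 CPM in AINlowVitD, with no overlap. Among these 9 only Cd79b did not overlap by itself (1.7, 2.09 and 4.31 CPM in AIN_VdrKO, 1.22, 1.39 and 1.31 CPM in AINlowVitD). In AIN_VdrKO 3 most of the sum was Cd79b and Ms4a1 (4.31 and 1.88 CPM). The T cell genes Cd3g, Cd3e, Cd3d and Cd8a were at 0.0284 to 0.0924 CPM in AIN_VdrKO 3. In AIN_VdrKO 1 and 2 they were at 0.202 to 1.35 CPM, a split like that of the class II genes. Cd4 was at 0 in AIN_VdrKO 1 and 3. The 5 that define myeloid cells summed to 5.01, 5.61 and 8.23 CPM in AIN_VdrKO and 3.74, 4.30 and 3.29 CPM in AINlowVitD. Most of that sum was Itgam (4.12, 5.26 and 7.88 CPM in AIN_VdrKO, 3.01, 3.75 and 2.97 CPM in AINlowVitD), and the other myeloid genes overlapped. Itgax was at 0 in AIN_VdrKO 2 and 3 and all AINlowVitD libraries. The part of leukocytes in the class II rise was not tested.

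**Figure D3:**
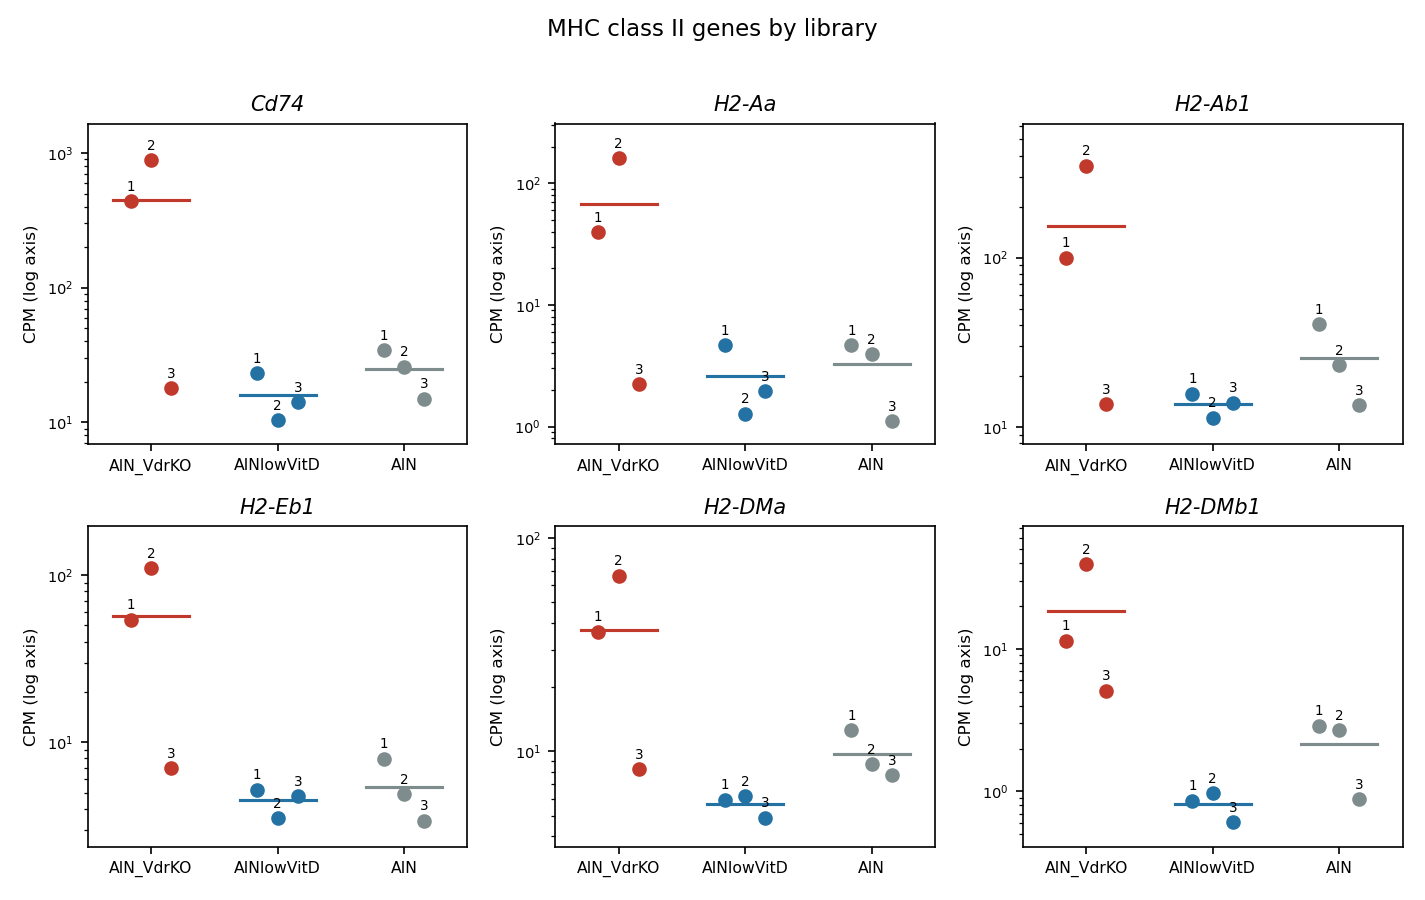
CPM on a log axis for 6 MHC class II genes in AIN_VdrKO, AINlowVitD and AIN; points are libraries with their replicate number and lines are means of 3. AIN_VdrKO 1 and 2 stand above every other library for each gene, and AIN_VdrKO 3 lies near or among the AINlowVitD libraries except for H2-DMb1, where at 5.08 CPM it is above all of them.

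Antimicrobial genes gave 3 further rises. Of 23 tested antimicrobial and acute phase genes 3 rose and none fell (0.685% of all genes rose), with a median log2 fold change of 0.72. The list had 1 rise without AIN_VdrKO 3 or AINlowVitD 3, 6 without AIN_VdrKO 1, and 0 in the 6 libraries with a sex term and in males only. Lcn2, which encodes the siderophore-binding protein lipocalin 2, was at 37.9, 6.87 and 41.6 CPM in AIN_VdrKO, against 2, 0 and 2 counts in AINlowVitD. The ratio of pooled counts was 730 (95% counting interval 285 to 2680), and all 3 AIN libraries were also at or near 0. The call had an adjusted p of 0.00206. Retnlb, a goblet cell product that acts on bacteria, was at 36.6, 13.6 and 36.1 CPM in AIN_VdrKO and 0.800, 4.84 and 2.17 CPM in AINlowVitD (3.46 ± 0.71, adjusted p = 0.0122). Duoxa2, the maturation factor of the hydrogen peroxide-producing oxidase Duox2, was at 16.7, 10.3 and 8.33 CPM in AIN_VdrKO and 1.09, 1.21 and 2.36 CPM in AINlowVitD (3.08 ± 0.82, adjusted p = 0.0455). None of these 3 overlapped between the groups. The Duoxa2 call was lost on leaving out any library but AIN_VdrKO 1.

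The abundant C-type lectins Reg3b and Reg3g, named after their values were seen, were higher in every AIN_VdrKO library without passing the test. Reg3b was at 44300, 34000 and 20400 CPM in AIN_VdrKO and 1750, 5140 and 8650 CPM in AINlowVitD (2.83 ± 0.87, adjusted p = 0.0805). Reads of these similar genes may be shared.

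The 10 largest rises with ample counts included Tlr1, Tmem173, Wdfy1, Lgmn and Pla2g5 besides the genes above. Tlr1, a receptor for bacterial lipopeptides, was at 16.8, 22.4 and 33.0 CPM in AIN_VdrKO and 2.56, 2.36 and 1.92 CPM in AINlowVitD (3.54 ± 0.49, adjusted p = 0.00117). Tmem173, which encodes the DNA-sensing adaptor STING, was at 7.15, 8.57 and 26.5 CPM in AIN_VdrKO and 1.06, 3.03 and 1.15 CPM in AINlowVitD (2.99 ± 0.55, adjusted p = 0.00811). Wdfy1, which encodes an endosomal protein, was at 36.1, 65.9 and 47.4 CPM in AIN_VdrKO and 8.89, 5.63 and 7.22 CPM in AINlowVitD (2.79 ± 0.42, adjusted p = 0.00196). Neither Tlr1 nor Wdfy1 was near overlap. For Wdfy1 AIN lay with AINlowVitD, at 5.83 to 8.17 CPM. For Tlr1 AIN lay between the groups, nearer AINlowVitD, at 4.49 to 5.11 CPM. Lgmn, a lysosomal protease, rose by 2.63 ± 0.43 (adjusted p = 0.00356), and the secreted phospholipase gene Pla2g5 by 3.51 ± 0.62 (adjusted p = 0.00621). The class I gene H2-Q7 was at 11.5, 11.9 and 3.30 CPM in AIN_VdrKO and 1.54, 1.27 and 1.41 CPM in AINlowVitD (2.52 ± 0.62, adjusted p = 0.0329), the only call of 25 class I identifiers. In the interferon list edgeR called 1 of 43 genes, a fall (2.33%, against 2.38% of all genes). DESeq2 called 2 rises and 1 fall there, beside 315 rises and 851 falls among all 16050 genes. Total count scaling called 6 rises and 1 fall there, beside 2246 rises and 354 falls among all 16050 genes. Ifit3, an interferon-induced RNA-binding protein gene, was the fall called by edgeR, at 0.162, 0.217 and 0.199 CPM in AIN_VdrKO and 8.44, 2.36 and 3.07 CPM in AINlowVitD (-3.62 ± 0.94, adjusted p = 0.0398).

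Nuclear genes of oxidative phosphorylation made up the largest block of falls in any list. The pathway's complexes pass electrons to oxygen and use the proton gradient to make ATP. Of 76 tested genes 35 fell (46.1%) and none rose, against 2.38% falls among all genes, with a median log2 fold change of -1.54. Their summed level was 77600, 45400 and 33100 CPM in AIN_VdrKO and 149000, 123000 and 149000 CPM in AINlowVitD, which did not overlap; AIN, at 41900 to 64100 CPM, lay with AIN_VdrKO.

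The falls were spread over complexes I, III, IV and V, but did not take in all genes of a complex. Log2 fold changes ran from -2.67 to 0.31 in complex I, -2.56 to 0.15 in III, -2.33 to -1 in IV and -3.14 to -0.11 in V. Genes near 0 included Ndufs1 (0.31) and Ndufv1 (0.15) of complex I, Uqcrc1 (0.15) of III and Atp5b (-0.12) of V. In complex I, which takes electrons from NADH, 16 of 36 genes fell (median log2 fold change -1.49). In complex III 5 of 9 fell (-1.94), in complex IV, cytochrome oxidase, 8 of 11 (-1.82), and in complex V, ATP synthase, 5 of 15 (-1.22). The electron carrier gene Cycs fell as well. In complex II, succinate dehydrogenase, 0 of 4 passed and the median was -0.03. Atp5k, an ATP synthase subunit gene, was at 543, 214 and 117 CPM in AIN_VdrKO and 3370, 3170 and 1630 CPM in AINlowVitD (-3.14 ± 0.58, adjusted p = 0.00811). Ndufc1, a complex I subunit gene, was at 662, 256 and 172 CPM in AIN_VdrKO and 2820, 2450 and 1890 CPM in AINlowVitD (-2.67 ± 0.50, adjusted p = 0.00811). Neither gene overlapped between the groups. Cox7a1, a cytochrome oxidase subunit gene outside the list, fell by 3.70 ± 0.60 (adjusted p = 0.00347).

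Gene length moved with these falls. The 382 falls had a median length 0.404 of that of the median tested gene, the 110 rises 0.925, and when genes were put in 5 equal bins by length, the shortest bin held 206 of the 382 falls. Complex IV genes were at 0.217 and complex II genes at 0.862 of the median length. Within the shortest bin 24 of 41 oxidative phosphorylation genes fell, against 5.74% of the other genes of that bin. In the next bin 5 of 20 fell, against 2.13% of the others. With gene length offsets in the fit 35 of 76 fell, 34 of them also called without the offsets, and the median was -1.13. The number of calls followed single libraries: 2 without AIN_VdrKO 2, 3 without AIN_VdrKO 3, 6 without AINlowVitD 3, 17 without AINlowVitD 1 and 52 without AIN_VdrKO 1. It was 0 in the 6 libraries with a sex term and in males only, where the medians were -1.80 and -1.79.

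**Figure D4:**
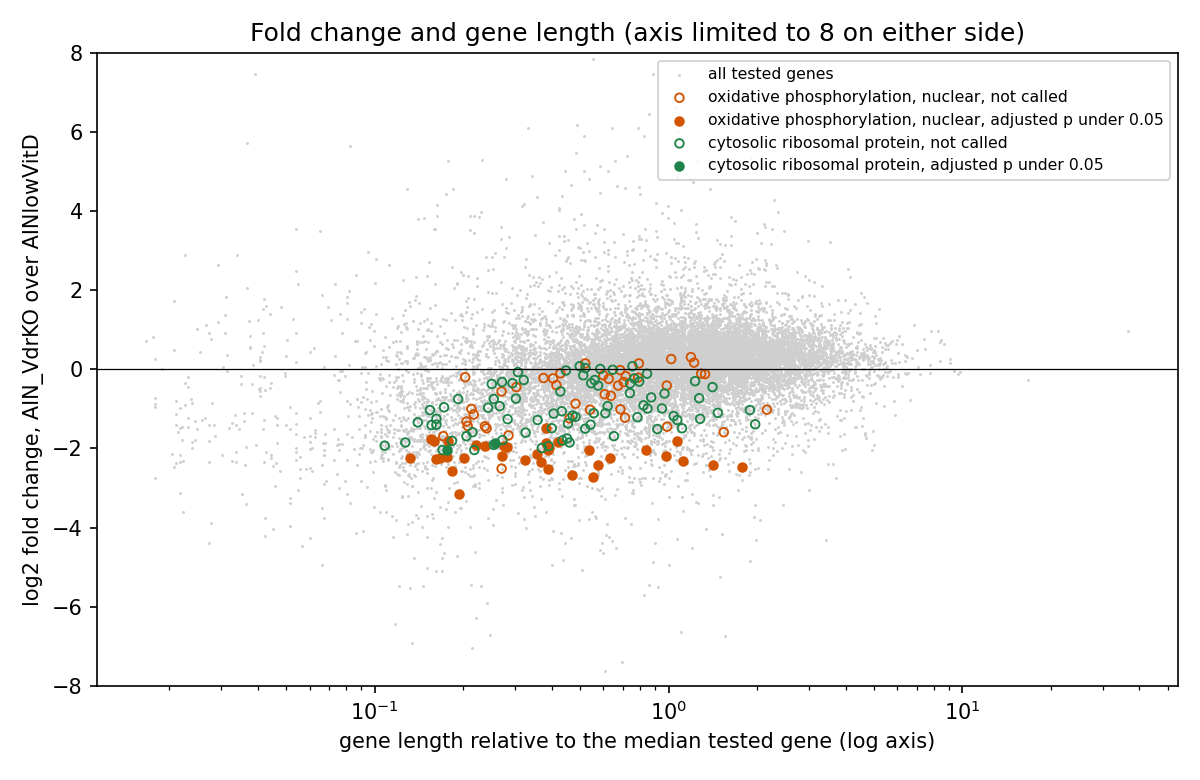
Fitted log2 fold change (AIN_VdrKO over AINlowVitD) against gene length relative to the median tested gene (log axis). Grey points are all tested genes (10 lie beyond the vertical limits), orange points nuclear oxidative phosphorylation genes and green points cytosolic ribosomal protein genes, filled where adjusted p was under 0.05. The 35 filled orange points all lie below 0. Of 5 equal length bins the shortest holds 24 of them, the bins that follow 5, 4 and 2, and the longest 0.

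Cytosolic ribosomal protein genes were lower as a list with few calls. Of 80 tested genes 76 had a negative log2 fold change, and 39 did not overlap and were lower (12.8% of all genes did so). The calls were 2 falls, Fau and Rps27l (2.5%, against 2.38% of all genes). The median was -1.10. The summed level was 63700, 28700 and 25900 CPM in AIN_VdrKO and 72400, 81200 and 66200 CPM in AINlowVitD, with AIN_VdrKO 1 close to AINlowVitD. Without AIN_VdrKO 1 the list had 51 falls and a median of -1.75. DESeq2 called 19 falls, and limma on log2(TPM + 1) gave 6 rises, 4 falls and a median of -0.33. Fau, a ubiquitin-like fusion with a small-subunit protein, was at 579, 259 and 203 CPM in AIN_VdrKO and 1580, 1230 and 1430 CPM in AINlowVitD (-2.03 ± 0.45, adjusted p = 0.0170). Among 31 translation factor genes Eif2s2, a subunit of the initiation factor eIF2, was the only call (-1.53 ± 0.35, adjusted p = 0.0212). Of 13 mitochondrially encoded genes of the list none was called by edgeR (2 at an unadjusted p under 0.05), and DESeq2 called 1 fall. Yet 7 of the 13 were lower without overlap (53.8%, against 12.8% of all genes). Their median was -0.63, and it ran from -0.83 to 0.2 in the other settings. The mitochondrial tRNA gene mt-Tq, outside this list, fell by 3.61 ± 0.68 (adjusted p = 0.00845).

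Enterocyte genes had 1 fall among 35 (2.86%, against 2.38% of all genes), with a median of -0.84 that was 0.11 with TPM. The fall was Fabp1, which encodes a fatty acid carrier, at 5120, 3140 and 3910 CPM in AIN_VdrKO and 39200, 10500 and 31800 CPM in AINlowVitD (-2.48 ± 0.60, adjusted p = 0.0279). The groups did not overlap, but the call was lost without any of AIN_VdrKO 2, AIN_VdrKO 3, AINlowVitD 1 and AINlowVitD 3. Fabp6, the ileal bile acid carrier gene, was at 22.2, 40.5 and 5.98 CPM in AIN_VdrKO and 698, 134 and 432 CPM in AINlowVitD (-3.72 ± 0.96, adjusted p = 0.0382). Leap2, which encodes a secreted peptide that blocks the ghrelin receptor, was at 22.9, 72.4 and 14.1 CPM in AIN_VdrKO and 649, 149 and 1520 CPM in AINlowVitD (-4.42 ± 1.07, adjusted p = 0.0305). Neither Fabp6 nor Leap2 overlapped between the groups, and neither was called without AINlowVitD 3, AINlowVitD 1, AIN_VdrKO 2 or AIN_VdrKO 3. Of 29 bile acid and xenobiotic genes 4 fell (Abcb1a, Cyp2c55, Cyp2c65 and Fabp6), against 2.38% of all genes, with a median of -0.92 that was -0.05 on log2(TPM + 1). Without AINlowVitD 3 that list had 1 fall and a median of -0.29, without AIN_VdrKO 3 or AINlowVitD 1 it had 2 falls, and in the 6 libraries with a sex term it had 0. Dio1, a deiodinase that activates thyroid hormone, was at 0.646, 4.39 and 4.76 CPM in AIN_VdrKO and 59.6, 37.1 and 69.4 CPM in AINlowVitD (-3.90 ± 0.57, adjusted p = 0.00186), and AIN, at 63.3 to 133 CPM, was nearer AINlowVitD.

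Of 27 enteroendocrine genes 3, each encoding a hormone, fell (11.1%, against 2.38% of all genes). The median of the list was -0.43, and 0.27 with TPM. Lower without overlap were 15 of the 27 genes (55.6%, against 12.8% of all genes). Ghrl, which encodes ghrelin, was at 109, 24.6 and 14.4 CPM in AIN_VdrKO and 785, 552 and 535 CPM in AINlowVitD (-3.47 ± 0.62, adjusted p = 0.00621). Sst, which encodes somatostatin, was at 265, 145 and 84.0 CPM in AIN_VdrKO and 1420, 999 and 1040 CPM in AINlowVitD (-2.44 ± 0.45, adjusted p = 0.00811). The secretin gene Sct was the other fall (-2.40 ± 0.59, adjusted p = 0.0312). No library of AIN_VdrKO reached AINlowVitD for these 3 genes, and AIN had 84.1 to 93.7 CPM of Ghrl and 151 to 187 CPM of Sst. With gene length offsets Sst had a log2 fold change of -1.63 and lost its call (adjusted p = 0.0651), and 1 gene of the list fell, as it did without AINlowVitD 3.

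Goblet and Paneth cell genes did not move one way. Tff3, the goblet cell trefoil peptide gene, was at 4360, 3450 and 1370 CPM in AIN_VdrKO and 31000, 22600 and 23900 CPM in AINlowVitD (-2.99 ± 0.60, adjusted p = 0.0117). Guca2a, the guanylin gene, fell too (-2.50 ± 0.60, adjusted p = 0.0268), while Retnlb rose and Muc2, the main mucin gene, overlapped between the groups (0.15 ± 0.54, adjusted p = 0.898). Of 25 goblet cell genes 1 rose (4%) and 2 fell (8%), against 0.685% and 2.38% of all genes.

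Of 25 Paneth cell genes 5 fell (20%, against 2.38% of all genes) and none rose, but the median was 0.06. In other fits 2 fell without AIN_VdrKO 3 or with gene length offsets, and DESeq2 called 2 rises and 6 falls. The falls were Defa20, Defa21, Defa22, Spink4 and Guca2a, the last also on the goblet cell list. The alpha-defensin gene Defa21 was at 0.0404, 0.609 and 0.0853 CPM in AIN_VdrKO and 100, 332 and 85.3 CPM in AINlowVitD (-9.49 ± 1.43, adjusted p = 0.00200). Defa20 was at 1.98, 3.83 and 1.02 CPM in AIN_VdrKO and 145, 749 and 151 CPM in AINlowVitD (-6.92 ± 1.13, adjusted p = 0.00347), and AIN, at 24 to 42.1 CPM, lay between the groups. Lyz1, the Paneth cell lysozyme gene named after its values were seen, went against them: it was at 2160, 9970 and 2590 CPM in AIN_VdrKO and 359, 2150 and 790 CPM in AINlowVitD (2.08 ± 0.80, adjusted p = 0.158). Alpha-defensin genes are near-identical copies and reads may be assigned to another member.

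**Figure D5:**
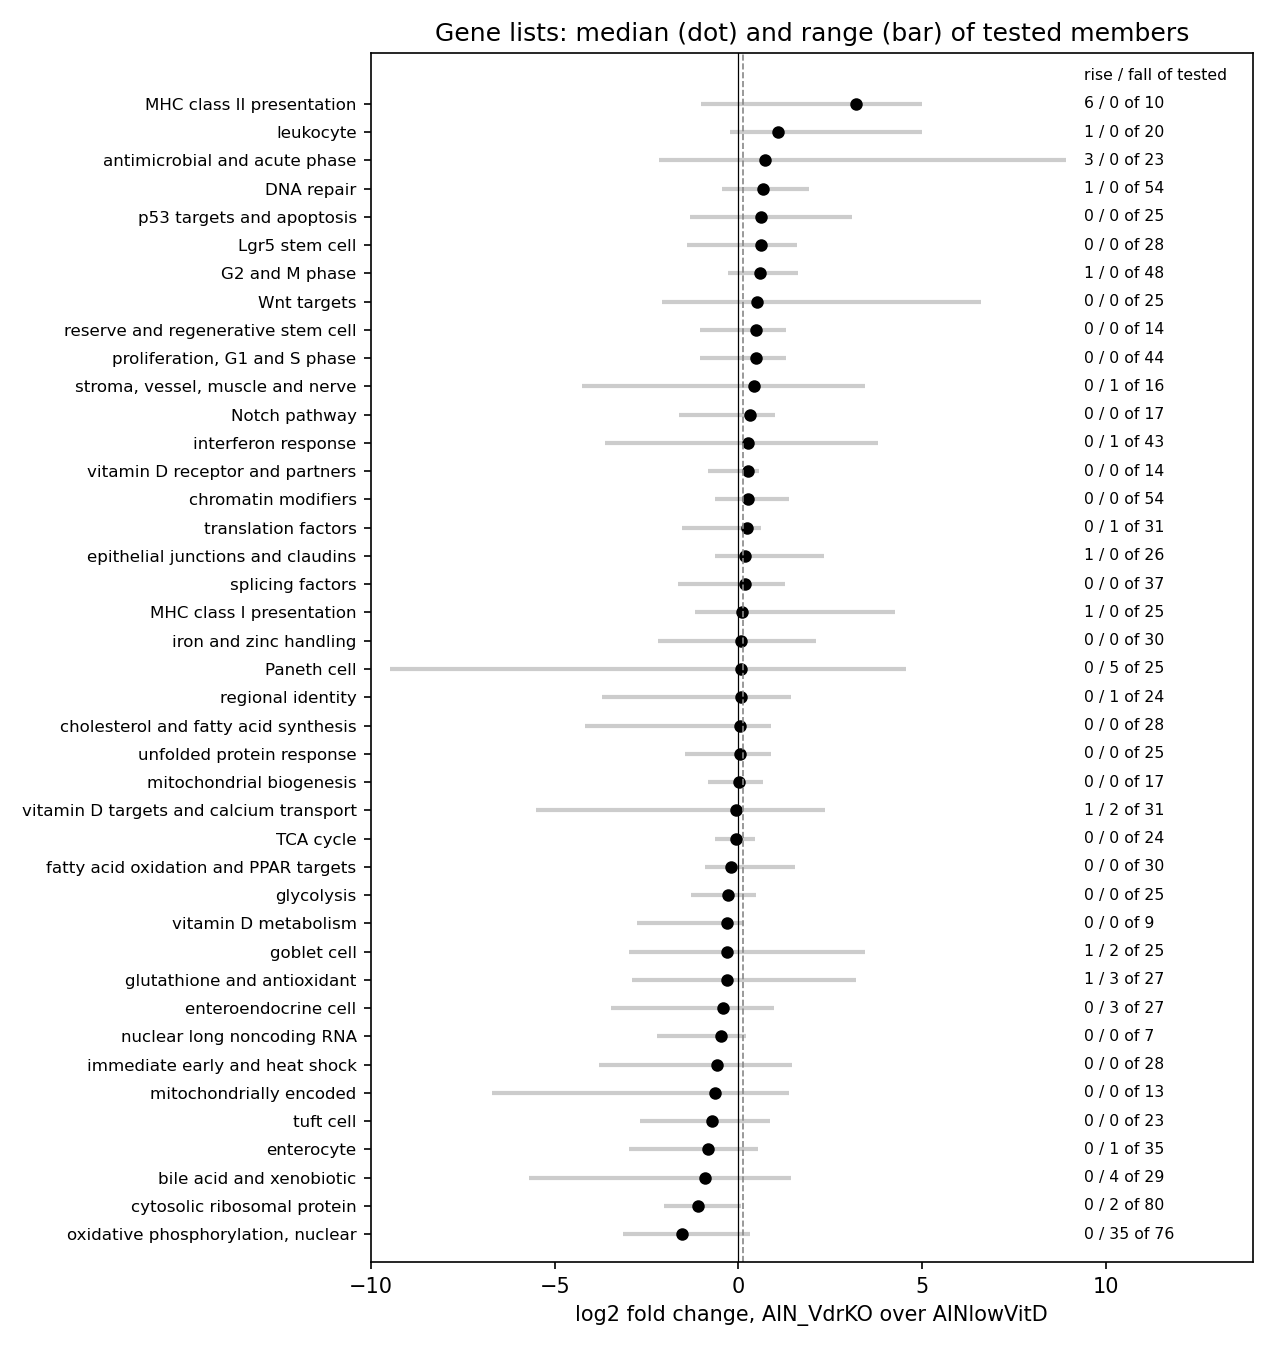
Median (dot) and range (bar) of the fitted log2 fold change (AIN_VdrKO over AINlowVitD) of the tested members of each of 41 gene lists, with the number of rises and falls at an adjusted p under 0.05. The dashed line is the median of all tested genes, 0.13; MHC class II presentation lies highest at 3.21 and nuclear oxidative phosphorylation lowest at -1.54.

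No Lgr5 stem cell gene was called among 28 tested by edgeR (9 at an unadjusted p under 0.05; DESeq2 called 2 rises), although 21 had a positive log2 fold change (median 0.61) and 13 were higher without overlap (46.4% of the list, against 16.1% of all genes). Lgr5, which defines the sorted cells, was at 33.3, 44.9 and 24 CPM in AIN_VdrKO and 11.4, 35.8 and 12.6 CPM in AINlowVitD (0.51 ± 0.56, adjusted p = 0.640). Olfm4, an abundant stem cell marker, was at 2740, 5500 and 2630 CPM in AIN_VdrKO and 599, 1860 and 1080 CPM in AINlowVitD (1.13 ± 0.58, adjusted p = 0.280), without overlap. Ascl2, a stem cell transcription factor gene, overlapped (-0.14 ± 0.56, adjusted p = 0.916) and had a log2 fold change of 0.31 under total count scaling. The sorted cells thus held the defining markers in both groups, next to markers of other epithelial cells.

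Cell cycle and repair genes were mostly higher with few calls. Of 48 tested G2 and M phase genes 46 had a positive log2 fold change and 32 were higher without overlap (66.7%, against 16.1% of all genes), with a median of 0.59, and Ncapg was the only call. Ncapg, a condensin subunit gene, was at 35.0, 47.6 and 50.5 CPM in AIN_VdrKO and 11.5, 14.5 and 13.8 CPM in AINlowVitD (1.61 ± 0.35, adjusted p = 0.0159). AIN, at 36.2 to 40.3 CPM, lay with AIN_VdrKO. Of 54 DNA repair genes Fancd2, of the Fanconi anaemia pathway, was the only call (1.92 ± 0.42, adjusted p = 0.0165), and the median was 0.66. Of 44 genes of G1 and S phase none was called by edgeR or DESeq2 (8 at an unadjusted p under 0.05; median 0.47; 24 higher without overlap, 54.5% against 16.1%).

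Of 27 glutathione and antioxidant genes 1 rose (3.7%) and 3 fell (11.1%), against 0.685% and 2.38% of all genes. Without AIN_VdrKO 3 or AINlowVitD 3 none was called. The glutathione transferase genes Gsta4 (97.2 ± 48.0 CPM in AIN_VdrKO and 687 ± 321 CPM in AINlowVitD; -2.70 ± 0.62, adjusted p = 0.0218) and Gsta1 (31.1 ± 15.5 CPM in AIN_VdrKO and 280 ± 129 CPM in AINlowVitD; -2.91 ± 0.73, adjusted p = 0.0342) fell (SD, n = 3 each), as did the thioredoxin gene Txn1, while the gastrointestinal glutathione peroxidase gene Gpx2 rose (1.59 ± 0.41, adjusted p = 0.0389). Cldn4, a claudin gene and the only call of 26 junction genes, was at 7.55, 27.2 and 40.4 CPM in AIN_VdrKO and 7.96, 6.54 and 3.48 CPM in AINlowVitD. Its groups overlapped through AIN_VdrKO 1, and the call (2.32 ± 0.62, adjusted p = 0.0457) was lost in 12 of 21 other settings.

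Insl6 was the gene with the smallest p and the only one called in all 22 settings. This relaxin-family peptide gene (ENSMUSG00000050957.3) was at 1.17, 0.826 and 0.910 CPM in AIN_VdrKO and 72.2, 50.4 and 98.3 CPM in AINlowVitD. The AIN_VdrKO libraries differed little from each other and were far below both AINlowVitD and AIN (33.9, 28.1 and 18.8 CPM). The log2 fold change was -6.29 ± 0.46 (adjusted p = 3.62e-07), and with males only, against AINlowVitD 3 alone, it was -6.75 (adjusted p = 0.000907). Leaving out the pair of settings with the fewest calls, 41 genes were called in the other 20 settings, 7 rises and 34 falls. Among them were Dio1, Cox7a1, the defensin genes Defa20 and Defa21, Abcb1a, Cd14, Tlr1, Lgmn and Wdfy1; neither S100g nor any class II or listed oxidative phosphorylation gene was.

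Of the 41 lists, 21 had no call by edgeR, with 0 to 11 members at an unadjusted p under 0.05 and medians between -0.71 and 0.61; DESeq2 called up to 4 members of a list. Among them were Wnt targets (median 0.51), the Notch pathway (0.32) and the tuft cell list, in which 22 of 23 genes had a negative log2 fold change (median -0.71; 0.22 with TPM). The TCA cycle (median -0.07), glycolysis (-0.27) and fatty acid oxidation (-0.20) lists had no call either. Of 16 tested genes of stroma, vessel, muscle and nerve 1 was called: S100b, a glial calcium-binding protein gene, was at 0.0808, 0.0870 and 0.0498 CPM in AIN_VdrKO and 1.41, 1.03 and 1.28 CPM in AINlowVitD (-4.27 ± 0.70, adjusted p = 0.00356).

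AIN, on the control diet, was set beside both groups. Of the 382 falls, the AIN mean was nearer to AIN_VdrKO than to AINlowVitD in 306 (80.1%), against 57.5% of all genes. Nearer did not mean between: in 172 of the 382 falls (45%, against 36.6% of all genes) the AIN mean was below both groups. It was above both in 23 (6.02%, against 39.6% of all genes). Of the 110 rises the AIN mean was nearer to AIN_VdrKO in 40 (36.4%). It lay above both groups in 19 (17.3%) and below both in 20 (18.2%). The AIN libraries lay at -100.3 to -39.5 on the first principal component and held 0.234% to 0.901% mitochondrial ribosomal RNA, on the side of AIN_VdrKO away from AINlowVitD, so diet, genotype and preparation cannot be told apart in these positions.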

How the data were processed

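Per the labels' protocols, RNA of bulk-sorted cells was reverse transcribed with SMART-Seq v4 and made into Nextera XT libraries, which do not mark strand. The authors deposited whole-number read counts and TPM values; the submitters' processing notes name build mm9 and the tools STAR 2.4.2a, HTSeq 0.6.1 and edgeR, without settings. The deposited TPM values are the same counts over a fixed length for each gene, rescaled in every library, so they add only another scaling. No column was left unmapped.

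From the counts, edgeR 4.0.16 (R 4.3.3; TMM, filterByExpr, quasi-likelihood F test, two-sided) was fitted to 21 libraries with a mean per group and a sex term, and p was adjusted by Benjamini-Hochberg over 16050 genes at 0.05. ERCC rows stayed out of the gene fit. In 20 libraries with at least 100 spike-in counts the spike-ins were tested on their own total. Log2 fold changes are fitted values with standard errors. On simulated data with 200 changed genes the fit was tested before use. The simulated data held no effect of sex, gene length or preparation, so that test cannot show how the fit deals with these. Alternatives used DESeq2 1.42.0, limma 3.58.1 on log2(TPM + 1), other scalings, filters, designs and left-out libraries. Precision is limited by 3 libraries a group and by counts of 19889795 to 115435120; counting intervals cover counting error only. The labels describe separate mouse samples; no replicate pair was a repeated library (chi-square per degree of freedom 171.4 or more), and sex markers matched the labelled sex in 6 of 6 libraries. AIN_VdrKO 1 and AINlowVitD 3 carry index pairs that other libraries of the series carry too.

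Named genes are the 10 largest rises and the 10 largest falls whose libraries do not overlap and whose log2 CPM averages 2 or more (sex-linked, predicted, Rik and clone genes left out), up to 2 called members of each of 41 lists with the smallest p, 17 genes of the vitamin D and stem cell literature, and the 3 nearest genes on each side of Vdr in GRCm38 order; further list members are named beside their list's count. Members, lists and tests were chosen with earlier results of these data known. Genes with near-identical copies (Defa, Reg3, H2, Gsta, metallothionein and ribosomal protein genes) may share reads.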

Additional observations from a re-analysis of the deposited data

How the results depend on the processing

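All 42 called named genes kept their direction in every setting in which they were tested, but calls depended on the design. Against 110 rises and 382 falls, the 6 libraries gave 62 and 154 with group only and 0 and 5 with sex added; males only gave 0 and 6, the 21 libraries without the sex term 564 and 751, and DESeq2 315 and 851. A filter of 1 count in any library gave 508 and 940. Rises numbered 2246 with total count scaling, 4830 with limma on log2(TPM + 1) and 5926 on log2(TPM + 0.1), where the median of all genes moved to 0.64, 0.63 and 0.92 and rises made up 86.4%, 93.7% and 94.2% of calls, against 22.4%. Leaving out 1 library gave 14 rises (without AINlowVitD 3) to 824 (without AIN_VdrKO 1) and 78 falls (without AIN_VdrKO 3) to 1117 (without AIN_VdrKO 1), and 29 to 52 spike-ins. The cause was not tested.

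Same-numbered libraries deviated together at -0.07, -0.15 and -0.03, so the numbers do not pair them; with the replicate block there were 121 rises and 645 falls, and with gene length offsets added 133 and 480.

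Some uncalled genes changed sign. Under total count scaling, log2(TPM + 1) and log2(TPM + 0.1), the log2 fold changes were 0.31, 0.86 and 0.89 for Ascl2, 0.05, 0.42 and 0.42 for Cldn15, 0.14, 0.54 and 0.56 for Atp2b1, and 0.10, 0.40 and 0.44 for Ppargc1a. Rxra was at 0.01 with either TPM setting. Mt2 was at 0.09 with total count scaling, 0.25 with length offsets, 0.27 with the replicate block and length offsets, and -1.70 to 0.24 on leaving out 1 library (0.24 without AIN_VdrKO 3). Ascl2 was at 0.21 in the 6 libraries with group only, 0.26 without the sex term, and -0.42 to 0.30 on leaving out 1 library (above 0 without AIN_VdrKO 3 or AINlowVitD 2). Rapgef3 was at -0.26 in the 6 libraries with sex, -0.24 in males only and -0.02 with the replicate block and length offsets. On leaving out 1 library Slc48a1 ran from -0.07 (without AIN_VdrKO 2) to 0.84, and Lgr5 from -0.05 (without AINlowVitD 3) to 1.24.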

Other observations

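Gm14446, a predicted gene outside the naming rule and chosen after its values were seen, had 0 counts in all 3 AIN_VdrKO libraries and 506, 217 and 421 counts in AINlowVitD; AIN was at 23.2, 41.4 and 15.6 CPM. In the 6 libraries with a sex term, where the contrast rests on AINlowVitD 3 alone, Gm14446 had a log2 fold change of -12.33. Ocm, the oncomodulin gene, a calcium-binding protein gene likewise outside the rule, had 3, 4 and 41 counts in AIN_VdrKO and 446, 138 and 516 counts in AINlowVitD. Its log2 fold change in the same fit, with the same limit, was -6.35. Cbx6, a Polycomb subunit gene, had 10, 14 and 39 counts in AIN_VdrKO and 170, 147 and 217 counts in AINlowVitD, and was called with males only (-4.20, adjusted p = 0.0165), a fit in which AINlowVitD 3 is the single AINlowVitD library and is assumed to vary like the males of other groups. Trim30c had 0 counts in every AIN_VdrKO library and 1, 0 and 1097 counts in AINlowVitD, so its call in that fit rests on AINlowVitD 3 alone.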
